A study of Mus musculus with 8 samples.

Results

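The proteasome genes of mouse muscle mesenchymal progenitors were followed through regeneration in a table of FPKM values, that is, sequenced fragments per kilobase of transcript, scaled to the number of fragments mapped. A gene was taken as a member when its symbol began with Psm, a letter from a to g and a digit, and 49 of 23846 rows did so, none of them repeated. By role, 41 were constitutive (7 alpha and 7 beta subunits of the 20S core, 9 subunits of the 19S base and 8 of the 19S lid, 7 assembly chaperones and 3 other regulators) and 5 belonged to the immunoproteasome (Psmb8, Psmb9, Psmb10, Psme1 and Psme2). The other 3 were the testis subunit Psma8, the thymus subunit Psmb11 and Psmc3ip, a meiotic recombination protein that is not a part of the proteasome. A total of 47 members reached 1 FPKM in some library, and the same 47 reached 5 FPKM.

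The libraries came from tdTomato-positive cells of C57BL/6J mice, sorted out of the whole muscle of the hindlimb. All carried the genotype Hic1CreERT2/CreERT2;Rosa26LSLtdTomato/+, and tamoxifen had been given from 8 weeks of age at 2.5 mg a day for 5 days, with a washout after it. There was 1 library of quiescent cells and 1 each at days 1, 2, 3, 4, 5, 7 and 10 after muscle injury by notexin, a venom phospholipase that destroys muscle fibres. The reporter labels cells with an active Hic1 gene at the time of tamoxifen, together with their progeny, and per the labels both Hic1 alleles carry the Cre insertion in the quiescent and the injured libraries alike. With 1 library per time point there is no replicate check, so each difference given here describes a pair of libraries, with no p-value. Whether several mice were pooled per library is not stated in the labels.

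The proteasome degrades proteins tagged with ubiquitin. Its 20S core is a stack of rings in which alpha subunits form the gate and beta subunits hold the catalytic sites, and the 19S cap, made of a base with an ATPase ring and a lid with a deubiquitinase, binds, unfolds and feeds in the substrate. Interferons induce Psmb8, Psmb9 and Psmb10, which replace Psmb5, Psmb6 and Psmb7 in newly built cores, and the cap proteins Psme1 and Psme2 (PA28 alpha and beta). The resulting immunoproteasome is known for producing peptides for MHC class I molecules. In many cell types, loss of proteasome activity raises the transcription of subunit genes together, through the factor Nfe2l1 acting on antioxidant response elements.

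The starts of the 5 immunoproteasome genes and of Psmb5 and Psmb6 are printed because the contrast between inducible and constitutive catalytic subunits runs through the results. Each stretch covers 100 bases before to 25 bases after a RefSeq transcript start on GRCm38.p6, read 5′ to 3′ on the strand of the gene. Capitals mark matches, on either strand, to the antioxidant response element core TGACNNNGC, the interferon-stimulated response element core GAAANNGAAA, the interferon-gamma activation site TTCNNNGAA or the box CCAAT. The stretches lie at chr17:34198095-34198219, plus strand (Psmb8); chr17:34187306-34187430, minus strand (Psmb9); chr8:105938368-105938492, minus strand (Psmb10); chr14:55578394-55578518, plus strand (Psme1); chr14:55591077-55591201, minus strand (Psme2); chr14:54617971-54618095, minus strand (Psmb5); and chr11:70525257-70525381, plus strand (Psmb6).
Psmb8: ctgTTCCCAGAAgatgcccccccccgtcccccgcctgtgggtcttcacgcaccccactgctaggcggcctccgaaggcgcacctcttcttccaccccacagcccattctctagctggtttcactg
Psmb9: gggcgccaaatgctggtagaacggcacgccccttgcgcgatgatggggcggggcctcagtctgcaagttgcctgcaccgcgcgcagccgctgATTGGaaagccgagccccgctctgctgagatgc
Psmb10: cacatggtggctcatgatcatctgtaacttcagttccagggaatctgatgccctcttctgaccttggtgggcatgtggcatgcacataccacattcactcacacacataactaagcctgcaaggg
Psme1: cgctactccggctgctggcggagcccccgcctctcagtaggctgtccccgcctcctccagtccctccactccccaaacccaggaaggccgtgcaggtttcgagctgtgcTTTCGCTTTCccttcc
Psme2: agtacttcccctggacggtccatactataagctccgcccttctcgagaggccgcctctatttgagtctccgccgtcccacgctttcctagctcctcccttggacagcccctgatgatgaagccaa
Psmb5: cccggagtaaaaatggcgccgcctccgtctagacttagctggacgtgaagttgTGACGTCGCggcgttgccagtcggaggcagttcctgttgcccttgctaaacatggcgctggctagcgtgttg
Psmb6: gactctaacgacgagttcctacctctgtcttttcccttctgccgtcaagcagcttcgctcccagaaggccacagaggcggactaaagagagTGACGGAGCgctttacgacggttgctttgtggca
Psmb5 carried the antioxidant core as TGACGTCGC at position -47 from its start and Psmb6 as TGACGGAGC at -9. Psmb8 carried the activation site as TTCCCAGAA at -97, and Psme1 the interferon-stimulated core, on the opposite strand, as TTTCGCTTTC at 10. Psmb9 held CCAAT on the opposite strand at -8, and the stretches of Psmb10 and Psme2 held none of the 4 sets of letters. In whole windows of 300 bases (250 before to 50 after the start), 41 members had 44 windows. The antioxidant core stood in 13.6% of them (Psmb5, Psmb6, Psmc6, Psmd9, Psmd12 and Psme4) and in 12.4% of all 32851 RefSeq windows. The interferon-stimulated core stood in 11.4% (Psmb3, Psmd4, Psmd9, Psme1 and Psmg4) against 3.44% of all windows, the activation site in 6.82% (Psmb8, Psmd2 and Psmg1) against 8.30%, and CCAAT in 34.1% against 37.4%. In the 36 windows of constitutive members alone, the antioxidant core stood in 16.7%. These are matches of letters only, and over all member windows the antioxidant core was about as common as in all RefSeq windows.

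Depth, estimated from the steps of low FPKM values, was 10.65 to 28.35 M fragments per library, which put the counting error of a member's log2 ratio at 0.027 to 0.35 (median 0.063) and at no more than 0.13 for an immunoproteasome gene. The 6 markers of mesenchymal progenitors (Hic1, Pdgfra, Ly6a, Col1a1, Dcn and Pdgfrb) were above 20 FPKM in all 8 libraries. At day 1 their median difference from quiescent was -1.09 on log2(FPKM + 1). At least 2-fold lower were 3 of 6 (Hic1, Dcn and Pdgfrb; 4 of 6 and -1.61 at a common FPKM sum), where 12.5% of all genes compared were as deposited. The part of this in the members' day 1 values was not tested. Markers of macrophages and monocytes moved with time. The 15 of them in the table summed to 35.3 FPKM in the quiescent library and 178, 273, 947, 157, 543, 84.3 and 87.5 FPKM at days 1, 2, 3, 4, 5, 7 and 10, with none at the floor value in any library. At day 3 Ctss (122 FPKM against 1.47 in quiescent) and Lyz2 (391 against 8.89) differed most. Cd14 (7.70 against 4.64) and the leukocyte gene Ptprc (2.31 against 0.156) differed least on log2(FPKM + 1), which understates changes of low genes. Endothelial markers (9 genes) summed to between 3.54 and 20.9 FPKM, lowest at day 1 and highest in quiescent, neutrophil markers (9) to between 2.28 and 90.3, and muscle fibre markers (11) to between 10.5 and 132. All differences below are on log2(FPKM + 1), injured minus quiescent, and a gene was counted as higher or lower when it differed by 1 or more (2-fold) and reached 5 FPKM in the higher of the pair. The median over all genes compared lay at 0.26, 0.29, 0.21, 0.03, 0.07, 0.06 and 0.05 at the 7 injured days in order. Median-ratio scaling shifted every gene by -0.35, -0.37, -0.26, -0.09, -0.14, -0.09 and -0.06 on log2 FPKM, and rescaling to a common FPKM sum by -0.53, -0.63, -0.44, -0.15, -0.38, -0.22 and -0.02.

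The constitutive proteasome rose nearly as a block at days 1 and 2, and the immunoproteasome genes other than Psme2 did not. The 5 immunoproteasome genes had a median difference of 0.43 at day 1 and 0.46 at day 2, with 1 of 5 (Psme2) at least 2-fold higher at either day, while the 41 constitutive members had medians of 1.59 and 1.57 with 36 of 41 higher at each. At day 3 the order of the medians turned: the immunoproteasome median was 1.12 with 3 of 5 higher (Psmb8, Psmb9 and Psme2), and the constitutive median was 0.86 with 13 of 41 higher. The value of 1.12 is that of Psme2, and Psmb10 and Psme1, at 0.75 and 0.53, lay below the constitutive median. By summed FPKM the order did not turn, with log2 ratios to quiescent of 0.90 for the immunoproteasome and 0.92 for the constitutive members. Among all genes compared, 22.4%, 23.7% and 15.6% were higher at days 1, 2 and 3, and 12.5%, 10.9% and 8.28% were lower, where no member of either group was. From day 4 on no immunoproteasome gene differed 2-fold from quiescent. Of all genes 3.01% to 8.39% were higher and 1.12% to 4.63% lower at those days, so 0 of 5 is near those shares. In these bulk libraries fewer cells of a type and less RNA per cell cannot be told apart.

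The immunoproteasome median minus the constitutive one was -1.15, -1.10 and 0.25 at days 1 to 3. It was -0.24, 0.27, -0.31 and -0.47 at days 4, 5, 7 and 10. Both scalings divide a whole library by 1 factor, so apart from the pseudocount they cannot change these gaps (-1.15 and 0.25 for days 1 and 3 under each). The immunoproteasome median itself can change sign, and it did. At days 1, 2, 4 and 7 it was 0.43, 0.46, 0.10 and 0.03 as deposited and -0.08, -0.13, -0.04 and -0.18 at a common FPKM sum, so its direction is not given at those days. No immunoproteasome gene was 2-fold higher at any day at a common sum, where 2.84% to 10.9% of all genes were. Under the median ratio 1 was, at day 3, where 10.5% of all genes were.

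**Figure D1:**
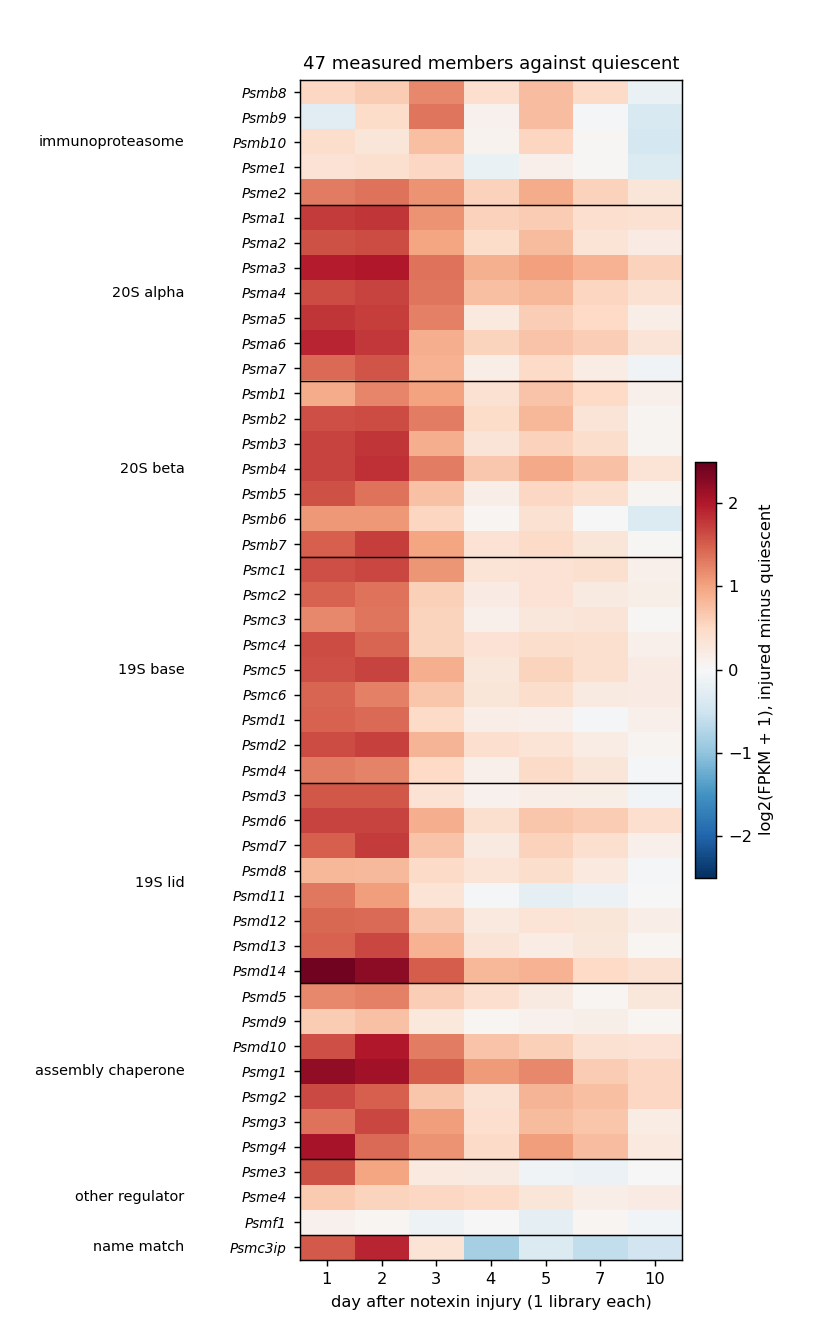
Difference of each measured member from the quiescent library on log2(FPKM + 1), 1 row per gene grouped by role and 1 column per injured library in order of day. Each constitutive row other than Psmf1 is darkest at day 1 or day 2, up to 2.41 for Psmd14, while Psmb8, Psmb9 and Psmb10 are darkest at day 3. Under median-ratio and common-sum scaling all values of a column move down, by up to 0.63.

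Psmb8, the inducible subunit with chymotrypsin-like activity (chr17:34198195-34201454, mm10), stood at 28.6 FPKM in quiescent cells, then 41.6, 44.9, 66.8, 38.4, 49.7, 40.3 and 25.2 FPKM over the 7 injured libraries in order of day. Its level was highest at day 3, 1.19 above quiescent, and at days 1 and 2 it was 0.52 and 0.63 above. Psmb9, the inducible subunit at the caspase-like position (chr17:34182099-34187330), had 13.7 FPKM before injury and 11.1, 19.3, 36.4, 14.7, 23.9, 13.2 and 10.24 FPKM at the same 7 days. It was the only one of the 47 measured members whose deposited level at day 1 lay below quiescent, with a difference of -0.28 and a counting error of 0.13, and its difference at day 3 (1.35) was the largest of the 5 immunoproteasome genes. Psmb10, at the trypsin-like position (chr8:105935728-105938392), had 36.3 FPKM in the quiescent library and 49.4, 44.996, 61.9, 38.7, 53.2, 37.1 and 26.5 FPKM at days 1, 2, 3, 4, 5, 7 and 10. Its largest difference, 0.75 at day 3, did not reach 2-fold.

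The activator pair of PA28 split. Psme2, the beta subunit (chr14:55587440-55591101), had 67.3 FPKM in quiescent cells, then 167, 175, 147, 101, 129, 101 and 83.6 FPKM over the 7 injured libraries in order of day. It rose at days 1, 2 and 3, by 1.30, 1.36 and 1.12, and it stood above quiescent in all 7 injured libraries as deposited. Psme1, the alpha subunit (chr14:55578494-55581527), had 95.7 FPKM before injury and 124, 127, 138, 85.5, 104, 97.4 and 75.5 FPKM at the same 7 days, and its largest difference was 0.53 at day 3. The deposited loci of the pair lie 5912 bases apart on chromosome 14. The ratio of Psme1 to Psme2 was 1.42 in the quiescent library and 0.742, 0.729, 0.939, 0.844, 0.802, 0.966 and 0.903 at days 1, 2, 3, 4, 5, 7 and 10, below its quiescent value in all 7 injured libraries. The log2 shift at day 1 was -0.94 with a counting error of 0.0743, and at day 10 it was -0.65 with 0.0728.

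**Figure D2:**
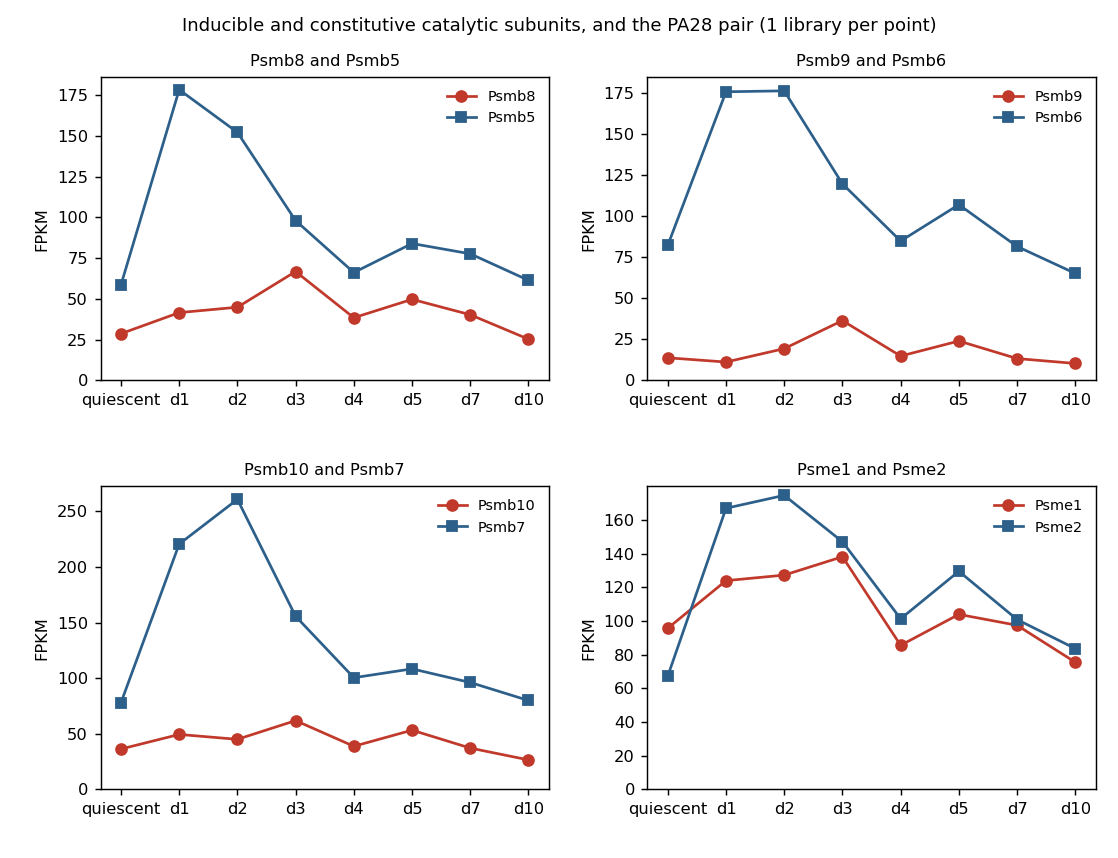
FPKM of each inducible catalytic subunit (circles) and the constitutive subunit it replaces (squares), and of Psme1 and Psme2, in the 8 libraries placed at equal steps in order of time (1 library per point). Psmb5, Psmb6 and Psmb7 are highest at day 1 or 2 and Psmb8, Psmb9 and Psmb10 at day 3.

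Set against the subunit it replaces within the same library, a ratio that no scaling of the library changes, each inducible subunit lost share at days 1 and 2. Psmb5, the constitutive chymotrypsin-like subunit (chr14:54614120-54617995), had 58.6 FPKM in the quiescent library and 179, 152, 98.1, 66.2, 84.0, 77.7 and 61.4 FPKM at days 1, 2, 3, 4, 5, 7 and 10. Psmb8 as a share of the summed FPKM of Psmb8 and Psmb5 was 32.8% in the quiescent library, 18.9% at day 1, 22.8% at day 2, 40.5% at day 3 and 36.7%, 37.2%, 34.1% and 29.1% at days 4, 5, 7 and 10. The log2 ratio of the pair moved by -1.07 at day 1 and 0.48 at day 3 against quiescent, with counting errors of 0.0926 and 0.0987.

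Psmb6, the constitutive caspase-like subunit (chr11:70525357-70527858), had 82.3 FPKM in quiescent cells, then 176, 176, 119.6, 84.8, 107, 81.5 and 65.1 FPKM over the 7 injured libraries in order of day. The Psmb9 share of this position was the smallest of the 3 in every library. It was 14.3% in the quiescent library, 5.94% at day 1, 9.85% at day 2, 23.3% at day 3 and 14.8%, 18.3%, 13.95% and 13.6% at days 4, 5, 7 and 10, a log2 shift of -1.40 at day 1 and 0.87 at day 3 with counting errors of 0.145 and 0.126. Psmb7, the constitutive trypsin-like subunit (chr2:38588046-38643906), had 78.0 FPKM before injury and 221, 261, 156, 100.4, 108, 96.1 and 79.9 FPKM at the same 7 days. The Psmb10 share was 31.8% in the quiescent library, 18.3% at day 1, 14.7% at day 2, 28.4% at day 3 and 27.8%, 32.9%, 27.9% and 24.9% at days 4, 5, 7 and 10. The shares of Psmb8 and Psmb9 at day 3 were above their quiescent values and that of Psmb10 was below it.

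**Figure D3:**
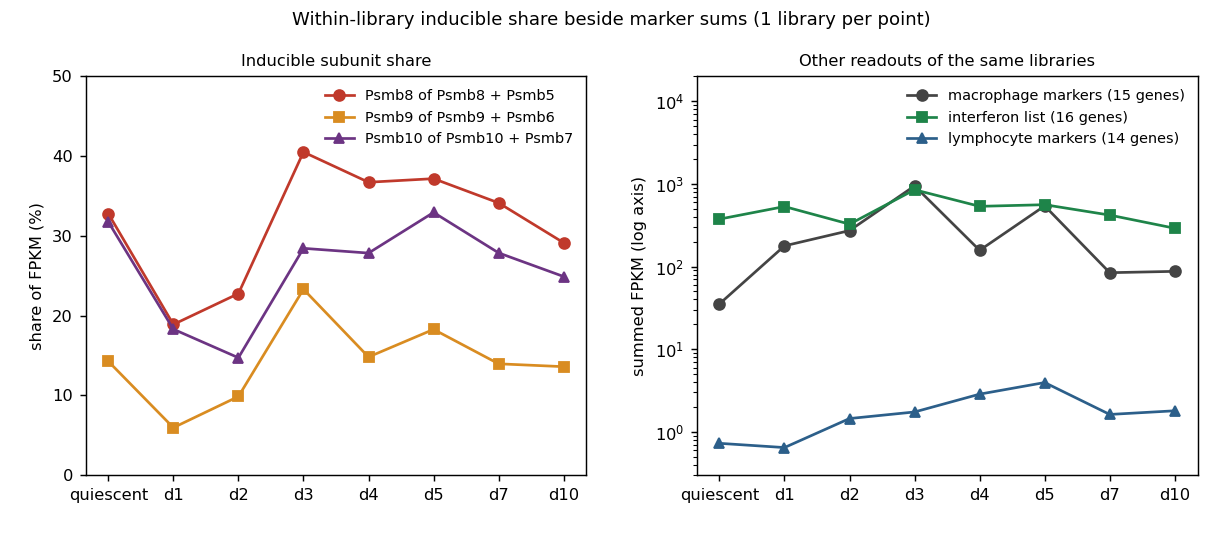
Left, FPKM share of each inducible subunit in the sum with its constitutive counterpart (%, 1 library per point, time points at equal steps). Right, summed FPKM on a log axis of 15 macrophage and monocyte markers, 16 interferon genes and 14 lymphocyte markers in the same libraries. The shares dip at days 1 and 2 and those of Psmb8 and Psmb9 are highest at day 3 (40.5% and 23.3%), the library in which the macrophage sum is also highest (947).

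Other readouts moved with the day 3 level of the immunoproteasome genes. The macrophage sum was highest there (947 FPKM, against 35.3 in quiescent), as was the sum of 16 interferon genes (850.4, against 375). The sum of 8 satellite cell and myoblast markers was highest at day 3 as well (46.9, against 14.5), most of it the Des level of 36.05 FPKM. Myod1 and Myog had the largest differences, at 5.11 FPKM against 0.031 in quiescent and 3.40 against the floor value of 0.001, and Pax7 was at 0.178. Lymphocyte markers stayed near the floor, with sums between 0.645 and 3.95 FPKM over 14 genes. All 5 immunoproteasome genes and all 15 macrophage markers were lower at day 4 than at both day 3 and day 5, which was also so for 32 of 41 constitutive members and 42.4% of all genes at 5 FPKM or more. At days 1 and 2 the macrophage sum was 178 and 273. The shares of all 3 inducible subunits were below quiescent there, with Psmb5, Psmb6 and Psmb7 each at least 2-fold higher as deposited. At day 1 Psmb8, Psmb9 and Psmb10 differed from quiescent by 0.52, -0.28 and 0.43. The part of other cells in the levels at days 1 to 3 was not tested.

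Psmb9 and Psmb8 lie in the MHC region of chromosome 17 with the peptide transporter genes between and beside them, in the order Psmb9, Tap1, Psmb8, Tap2. The deposited loci leave 225 bases between Psmb9 and Tap1, 969 between Tap1 and Psmb8 and 3024 between Psmb8 and Tap2. Tap1 had 9.23 FPKM in the quiescent library and 14.2, 12.1, 24.9, 14.7, 14.2, 12.8 and 9.85 FPKM at days 1, 2, 3, 4, 5, 7 and 10, and Tap2 had 35.9 FPKM in quiescent cells, then 23.5, 25.4, 35.9, 23.1, 24.5, 27.0 and 25.01 FPKM over the 7 injured libraries in order of day. As deposited, Tap1 was at least 2-fold higher at day 3 (1.34), as its neighbours Psmb8 and Psmb9 were, and Tap2 on the far side was not (0.00). At a common FPKM sum Psmb8 and Psmb9 fell below 2-fold at day 3, with 0.77 and 0.92. In GENCODE M21 the gene spans of Psmb9 and Tap1 overlap by 212 bases on opposite strands, and the sources used here do not say whether fragments were counted by strand.

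The constitutive block was tight. At day 1 the interquartile range of the members ran from 1.36 to 1.64, against -0.45 to 0.92 for the 8672 genes compared. All 41 lay above quiescent as deposited, where 59.8% of all genes did. The median ratio of FPKM to quiescent was 3.04 at day 1 and 2.98 at day 2. All 41 had their highest level at day 1 (19 members) or day 2 (22), where 48.3% of 9477 genes did, and under both scalings 39 of 41 did. In contrast, 4 of the 5 immunoproteasome genes (all but Psme2) were highest at day 3, where 12.7% of all genes were, and this count was the same under both scalings. Together the 49 members made up 0.821% of the FPKM sum at day 1 and 0.788% at day 2, against 0.432% in quiescent, with 0.601% at day 3 and 0.458% at day 10.

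The size of the rise depended on scaling and the direction of its median did not. Above quiescent lay 40 of 41 members at each of days 1 and 2 under the median ratio, and 40 and 39 at a common FPKM sum. Of the 41 constitutive members, 31 were 2-fold higher at day 1 and 27 at day 2 under the median ratio, where 14.3% and 14.1% of all genes were, and 22 and 20 at a common FPKM sum, where 10.9% and 9.73% of all genes were. The corresponding medians at day 1 were 1.24 and 1.06. Short transcripts stood higher at day 1 in general. When all genes were split by transcript length into 5 groups, their medians from the shortest group to the longest were 0.69, 0.39, 0.26, 0.10 and -0.09, and constitutive members in the same groups had medians of 1.63 (22 members), 1.45 (9), 1.59 (7), 0.66 (2) and 0.65 (1). In each length group the members stood above all genes. What length contributed to the members' values was not tested.

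The 7 alpha subunits, which form the outer rings and their gate, rose together. All 7 were higher at days 1 and 2, with medians of 1.75 and 1.73, and 4 of 7 at day 3, with a median of 1.12. Psma3 (chr12:70974623-70994923) had the largest difference, with 49.2 FPKM before injury and 196, 199.8, 127, 91.5, 102, 90.1 and 74.2 FPKM at the same 7 days. It was still 0.86 above quiescent at day 7 and 0.58 at day 10. Psma7, the alpha gene with the highest mean level, had the smallest difference of the class at day 1 (1.41), with 95.1 FPKM in the quiescent library and 255, 284, 176, 106, 134, 109 and 89.3 FPKM at days 1, 2, 3, 4, 5, 7 and 10. At day 10 it differed from quiescent by -0.09. At a common FPKM sum 6 of 7 alpha genes were still 2-fold higher at each of days 1 and 2 (median 1.22 and 1.10). Overlaps on the same strand were taken from whole gene spans in GENCODE M21, introns included. Psma2, and in other classes Psmd1 and Psmg3, overlap a protein-coding gene. Psmb5, Psmb7, Psmc5, Psmd12, Psmd13 and Psmd14 overlap a small RNA, an intronic transcript or a pseudogene. Levels of these members are uncertain where counting could split the reads, which spans alone do not show.

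Of the 7 constitutive beta subunits, which make up the inner rings, 6 were higher at day 1 (median 1.59), 7 at day 2 (1.64) and 3 at day 3 (0.99). With libraries rescaled to a common FPKM sum the counts were 4, 4 and 0 of 7. Psmb4 (chr3:94884324-94886958), a structural subunit without a catalytic site, had the highest level of any member in each injured library, with 97.1 FPKM in quiescent cells, then 314, 349, 238, 155, 187, 162 and 124 FPKM over the 7 injured libraries in order of day. Psmb6, whose values are given above, had the smallest difference of the class at day 2, 1.09, and was the constitutive member lowest relative to quiescent at day 10 (-0.33). Psmb5 and Psmb7 differed by 1.36 and 1.73 at day 2. The constitutive beta subunit below 2-fold at day 1 was Psmb1, at 193 FPKM against 101 in quiescent (0.93), and it was 1.23 above quiescent at day 2. Each of the 3 constitutive catalytic subunits kept a positive difference at days 1 to 3 under both scalings, the smallest being 0.10 for Psmb6 at day 3.

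All 9 genes of the 19S base were higher at days 1 and 2, with medians of 1.47 and 1.41. Under the median ratio 7 and 5 of 9 were, and at a common FPKM sum 4 and 3 of 9. At day 3 their median was 0.59 and 1 of 9 was higher, Psmc1 at 80.9 FPKM against 36.9 in quiescent. Psmd2 (chr16:20651652-20663414), a scaffold that docks ubiquitin receptors and shuttle factors, had the largest difference of the class at day 1, with 36.3 FPKM before injury and 115, 121, 66.5, 48.8, 46.6, 41.3 and 38.3 FPKM at the same 7 days. Psmc3, an ATPase of the unfolding ring and the base gene with the highest mean, had the smallest, with 69.0 FPKM in the quiescent library and 159, 177, 101, 75.2, 84.7, 86.3 and 70.5 FPKM at days 1, 2, 3, 4, 5, 7 and 10. Their day 1 differences, 1.64 and 1.19, bracket the other 7 base genes. The day 3 median was 0.59 for the base against 1.12 for the alpha and 0.99 for the beta subunits. At a common FPKM sum these 3 medians were 0.16, 0.69 and 0.56.

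In the 19S lid 7 of 8 genes were higher at each of days 1 and 2, with medians of 1.48 and 1.60, and 1 of 8 at day 3. Common-sum scaling left 3, 4 and 1 of 8. Psmd14 (chr2:61711694-61800376), the deubiquitinase that strips the ubiquitin chain from the substrate, had the largest difference of all 41 constitutive members, 2.41 at day 1, with 18.9 FPKM in quiescent cells, then 105, 93.4, 55.8, 34.4, 35.5, 27.2 and 25.1 FPKM over the 7 injured libraries in order of day. It was 2-fold higher at days 1, 2 and 3 under both scalings (at a common sum 1.89, 1.62 and 1.08). Psmd8, a lid subunit, was the lid member below 2-fold, with 61.6 FPKM before injury and 111, 109, 86.5, 78.3, 84.3, 72.9 and 60.4 FPKM at the same 7 days. Its differences were 0.84 and 0.82 at days 1 and 2, the smallest of the lid at either day.

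The mean level over the 17 genes of the 19S base and lid divided by that over the 14 constitutive core genes was 0.538 in the quiescent library and 0.509, 0.489, 0.428, 0.481, 0.442, 0.488 and 0.518 at days 1, 2, 3, 4, 5, 7 and 10. The ratio was lowest at day 3, and the cap stood lower relative to the core in each injured library than in the quiescent one.

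Assembly chaperones, which bring subunits together and are not part of the finished particle, held the second largest difference. Of 7, 6 were higher at days 1 and 2 (median 1.62 and 1.49), 4 at day 3 (1.04), 1 at day 4 (0.42) and 2 at day 5 (0.80). Common-sum scaling left 4, 3 and 1 of the 7 at days 1 to 3. Psmg1 (chr16:95979935-95990903), which starts the alpha ring together with Psmg2, had 10.3 FPKM in the quiescent library and 51.4, 47.6, 31.2, 22.8, 24.99, 16.6 and 15.3 FPKM at days 1, 2, 3, 4, 5, 7 and 10. It rose by 2.21 at day 1 and was the constitutive member 2-fold higher at day 4, where 4.54% of all genes were, and the first of 3 at day 5, where 8.39% were. Psmg4, a partner of Psmg3 and the chaperone with the highest mean, had 18.0 FPKM in quiescent cells, then 78.1, 49.7, 40.4, 25.4, 38.2, 31.3 and 21.6 FPKM over the 7 injured libraries in order of day. It was higher at days 1, 2, 3 and 5, and the other member higher at day 5 was Psma3 (1.03). At a common FPKM sum no member was 2-fold higher at day 4 or 5. Psmd9, a chaperone of the 19S base, had 10.9 FPKM before injury and 17.5, 18.6, 13.2, 11.2, 11.7, 12.1 and 11.3 FPKM at the same 7 days, never reaching 2-fold (0.64 at day 1). The other 2 base chaperones, Psmd5 and Psmd10, did so at day 1, with 1.20 and 1.62.

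The 3 other regulators went separate ways, with a median of 0.65 at day 1. Psme3 (chr11:101316251-101323530), the nuclear activator PA28 gamma, rose at day 1 and was back near its quiescent level by day 3, with 16.7 FPKM in the quiescent library and 52.4, 34.1, 19.9, 19.7, 15.6, 14.9 and 16.7 FPKM at days 1, 2, 3, 4, 5, 7 and 10. Its differences were 1.60, 0.99 and 0.24 at days 1 to 3. The log2 ratio of Psme3 to its relative Psme1 moved by 1.28 at day 1, with a counting error of 0.0785, and by -0.28 at day 3. Psmf1 (chr2:151716062-151741293), the regulator PI31 that binds the core and inhibits it in vitro, had 7.78 FPKM in quiescent cells, then 8.48, 8.08, 6.99, 7.75, 6.53, 8.13 and 7.38 FPKM over the 7 injured libraries in order of day. It was the flattest of the 47 measured members, its highest level being 1.30 times its lowest, and at day 1 it stood at 0.11 as deposited, -0.20 under the median ratio and -0.35 at a common sum. Psme4, the activator PA200, differed by 0.65 at day 1. Psmb1, Psmd8, Psmd9, Psme4 and Psmf1 were the 5 constitutive members that did not reach 2-fold at day 1.

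**Figure D4:**
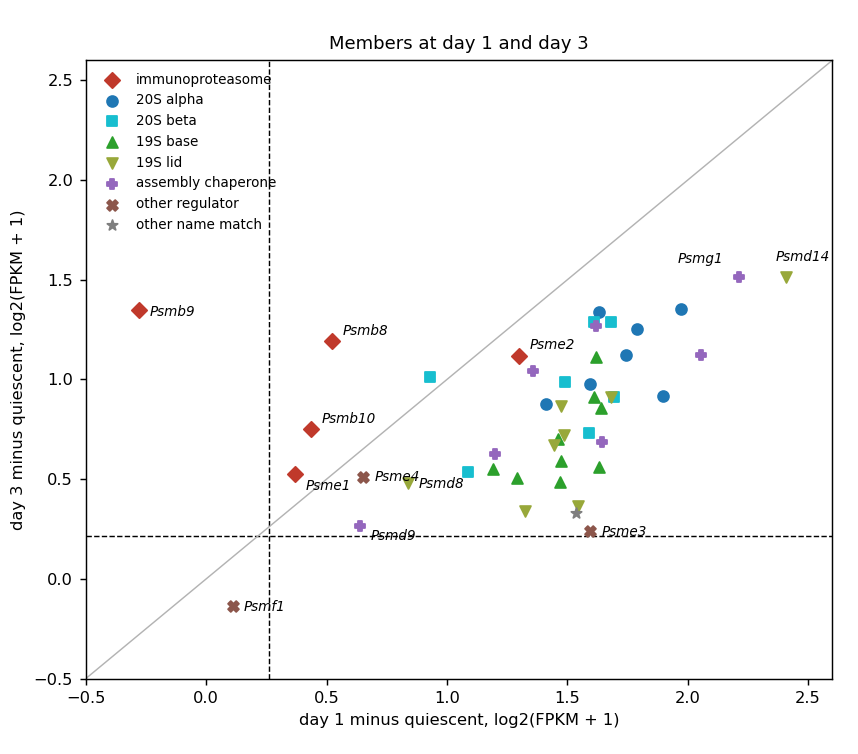
Difference from quiescent on log2(FPKM + 1) at day 1 (horizontal) and day 3 (vertical) for the 47 measured members, with a symbol for each role. The grey diagonal marks equal differences and dashed lines the all-gene medians (0.26 and 0.21). Psmb8, Psmb9, Psmb10 and Psme1 lie above the diagonal, and all constitutive members other than Psmb1 lie below it, Psmd14 and Psmg1 farthest to the right. Common-sum scaling moves all points left and down, by at most 0.53 and 0.44 and by less for members at low levels.

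Of the members outside these classes, Psma8, the testis subunit, was at or below 0.269 FPKM in all 8 libraries and Psmb11, the thymus subunit, at or below 0.105 FPKM. Psmb11 lies 7314 bases from Psmb5, whose quiescent level was 58.6 FPKM. Psmc3ip, a partner of meiotic and mitotic recombinases, had 3.57 FPKM before injury and 12.2, 16.2, 4.76, 1.57, 2.599, 1.99 and 2.26 FPKM at the same 7 days. It rose at days 1 and 2 by 1.53 and 1.91 and was below quiescent from day 4 on, with a difference of -0.83 at day 4.

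Between neighbouring libraries the block moved in steps. From day 1 to day 2 no member changed 2-fold, where 5.86% of all genes were higher and 2.95% lower at day 2, and the constitutive median difference was 0.00, with 22 members above day 1 and 19 below. At day 3 all 41 constitutive members stood below day 2, with a median of -0.69 against -0.11 for all genes, and 4 of 5 immunoproteasome genes stood above. Psmd3 and Psmd7, both lid subunits, were 2-fold lower at day 3 than at day 2, and so was Psmc3ip, where 3.88% of all genes were lower and 4.18% higher. At day 4, 40 of 41 constitutive and 5 of 5 immunoproteasome genes stood below day 3, and Psma5 (47.5 FPKM at day 4, 96.5 at day 3) and Psmb9 (14.7 and 36.4) were 2-fold lower, against 4.81% lower and 3.46% higher of all genes. No constitutive member was 2-fold from quiescent at day 7, where 3.94% of all genes were higher and 2.34% lower, or at day 10 (3.01% and 1.12%). No member was 2-fold lower than quiescent at day 4 or 5, where 2.15% and 4.63% of all genes were lower. At day 10 the constitutive median was 0.14, with 34 of 41 members above quiescent, and the immunoproteasome median was -0.34, with 1 of 5 above, Psme2.

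Genes that work with the particle rose in part. Of 11 partner genes, 6 were higher at day 1 (median 1.12), where 22.4% of all genes were. At a common FPKM sum 3 of 11 were (median 0.59), where 10.9% of all genes were. Usp14, a deubiquitinase that docks on the cap, had 5.38 FPKM in the quiescent library and 23.6, 22.7, 13.9, 9.93, 8.82, 8.15 and 9.29 FPKM at days 1, 2, 3, 4, 5, 7 and 10, and Txnl1, a thioredoxin-like protein bound to the cap, had 15.7 FPKM in quiescent cells, then 54.9, 56.3, 35.4, 25.8, 26.3, 20.3 and 19.998 FPKM over the 7 injured libraries in order of day. Both had their 2 highest levels at days 1 and 2. The least moved were Zfand2a, an arsenite-inducible proteasome-binding protein, at 5.82 FPKM at day 1 against 5.84 in quiescent, and Akirin2, which carries proteasomes into the nucleus, at 28.6 against 26.7. Pomp, the chaperone that matures the core, differed by 1.43 at day 1, and the ubiquitin receptor Adrm1 by 1.31. They were named after their values were seen.

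The genes of the Nfe2l1 pathway did not rise as a group. At day 1, 1 of 10 was higher, where 22.4% of all genes were. Their median was 0.25 (-0.09 under the median ratio and -0.27 at a common FPKM sum). The median was farthest from quiescent at day 5, -0.45 with 2 of 9 compared lower, where 4.63% of all genes were (-0.82 at a common sum). Under the median ratio it was farthest at day 3, at -0.64, with -0.58 at day 5. Nfe2l1 itself, picked after its values were seen, had 53.5 FPKM before injury and 49.0, 45.7, 35.6, 38.5, 37.7, 44.4 and 48.2 FPKM at the same 7 days. Vcp, the segregase that draws the factor out of the membrane of the endoplasmic reticulum among many other substrates, was the gene higher at day 1, at 207 FPKM against 81.0 (1.34), and at day 5 it stood at 0.35. Under the median ratio and at a common sum no gene of the list was 2-fold higher at day 1, where 14.3% and 10.9% of all genes were. Ngly1, which removes sugar chains from the factor, was within 0.27 of quiescent at day 5. Ddi2, the protease that cleaves it, had 0.990 FPKM at day 5 against 3.91, under the 5 FPKM minimum, and Mafk, a small Maf partner, was lower at day 5 with 16.4 against 36.9 (-1.13). These are RNA levels, and what Nfe2l1 contributed to the members' levels was not tested.

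Of 10 ubiquitin supply genes compared, 4 were higher at day 1 (median 0.73 over the 11 measured), where 22.4% of all genes were. After common-sum scaling 1 of 10 was (median 0.33), a share near the 10.9% of all genes. Rps27a, which encodes ubiquitin fused to a ribosomal protein, had 676 FPKM in the quiescent library and 2175, 2382, 1846, 1027, 1474, 1114 and 793 FPKM at days 1, 2, 3, 4, 5, 7 and 10, and the shuttle factor gene Rad23b had 86.9 FPKM at day 1 against 31.4.

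The medians of the antigen processing and interferon genes were farthest from quiescent at day 3 as deposited. This held at a common FPKM sum for the interferon genes, while the antigen processing medians at days 2, 3 and 4 were -0.43, 0.35 and 0.42. Of 9 antigen processing genes compared 3 were higher at day 3 (median 0.75 over the 10 measured), where 15.6% of all genes were. At a common sum 1 of 9 was, a share near the 7.75% of all genes. The largest differences were those of Pdia3, a thiol oxidoreductase of the peptide-loading complex, at 606 FPKM against 158 and of Tap1 at 24.9 against 9.23. The class I heavy chain gene H2-D1 was at 298 against 318. The genes of this list peaked at different days as deposited. Tap1, Tap2, Erap1, Nlrc5 and Pdia3 were highest at day 3 and Calr at day 2. B2m, H2-K1 and Tapbp were highest at day 5, and H2-D1 at day 7. B2m and H2-K1 differed by 0.94 and 0.46 at day 3 and by 1.40 and 1.11 at day 5. Of 13 interferon genes compared at day 3, 7 were higher and 1 lower (median 1.73), where 15.6% and 8.28% of all genes were. At a common sum the numbers were again 7 and 1, where 7.75% of all genes were higher. Isg15, a ubiquitin-like modifier, had 13.7 FPKM in quiescent cells, then 157, 42.7, 257, 79.7, 109, 45.9 and 17.8 FPKM over the 7 injured libraries in order of day. The chemokine gene Cxcl9 was at 20.3 FPKM against 0.439. Irf1, a factor known to drive Psmb9 and Tap1, was the gene lower at day 3, with 102 FPKM before injury and 37.3, 35.0, 40.5, 71.3, 63.1, 43.8 and 29.5 FPKM at the same 7 days, and the receptor gene Ifngr1 was at 92.4 against 124. The interferon genes themselves were at or near the floor, Ifng at no more than 0.305 FPKM and Ifnb1 at no more than 0.748. At day 1 Isg15 was 3.43 above quiescent, and Psmb8, Psmb9 and Psmb10 differed by 0.52, -0.28 and 0.43. What interferon contributed to the members' levels was not tested.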

How the data were processed

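RNA from tdTomato-positive cells was sequenced after poly(A) selection with a stranded kit, 1 library per time point. The authors deposited 1 table of FPKM values over 8 libraries and 23846 rows. The submitters' processing notes name the mm10 build and the tools TopHat2, Cufflinks, Bowtie2 and bcl2fastq, without versions. The sources used here give no annotation, filter or rule for fragments that map to several genes. FPKM is relative within a library, so a few abundant transcripts can move all other values. Here 0 columns of other samples were present, and locus starts were raised by 1 to count from 1.

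Differences were taken on log2(FPKM + 1), which understates changes of low genes. Genes were compared from 5 FPKM in the higher library, counted from a 2-fold difference, and called measured from 1 FPKM. The table holds no read counts, so depth was estimated from the spacing of low FPKM values over 2111 genes with a single transcript. Of these values 74.0% to 79.2% lay within 0.15 of a whole number of fragments, where chance gives 30%. Counting errors cover counting only. Scaling by the median ratio or to a common FPKM sum, a pseudocount of 0.1, minimums of 1 FPKM or none, a 1.5-fold threshold, summed repeated rows, the day 10 library as baseline and the day 3 library left out were tried. Members and gene lists were chosen with earlier results of these data known. Genes named were the immunoproteasome genes and the constitutive subunits they replace, the largest and smallest difference of each class at the day its median lay farthest from 0, the highest mean of each class, and the 2 largest and 2 smallest of each pathway list. Others were named after their values were seen. The smallest differences of the ubiquitin supply list are not reported here. Python 3.11.15, numpy 2.4.6, pandas 2.3.3 and matplotlib 3.10.9 were used, and the calculations were tested on simulated data.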

Additional observations from a re-analysis of the deposited data

How the results depend on the processing

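Counts of constitutive members 2-fold higher than quiescent and the medians of both groups were recomputed at each day, and a median was called moved from 0.1 on the log2 scale and a count from 1.5 times. At a common FPKM sum the counts were 22, 20, 2, 0 and 0 at days 1 to 5, the constitutive medians 1.06, 0.94, 0.44, 0.20, 0.11 and 0.13 at days 1, 2, 3, 4, 5 and 7, and the immunoproteasome medians -0.082, -0.13, 0.68, -0.038, 0.40 and -0.18 at the same days, reversed at days 1, 2, 4 and 7. Under the median ratio the counts were 8, 0 and 1 at days 3, 4 and 5, the constitutive medians 1.24, 1.20, 0.61 and 0.35 at days 1, 2, 3 and 5, and the immunoproteasome medians 0.093, 0.11, 0.86, 0.63 and -0.057 at days 1, 2, 3, 5 and 7, reversed at day 7. With a 1.5-fold threshold the counts were 29, 6, 16 and 8 at days 3, 4, 5 and 7. With the day 10 library as baseline, an alternative chosen after seeing the data, the counts were 3, 0 and 0 at days 3, 4 and 5, the constitutive medians 1.37, 1.40, 0.71, 0.23, 0.36 and 0.24 at days 1, 2, 3, 4, 5 and 7, and the immunoproteasome medians 0.71, 0.81, 0.49, 0.95 and 0.36 at days 1, 2, 4, 5 and 7. With the day 3 library left out, also chosen after seeing the data, 2 of 5 immunoproteasome genes were highest at day 1 or 2. A pseudocount of 0.1, a minimum of 1 FPKM or none, and summing repeated rows moved none of the results recomputed under them by these measures, the count at day 2 being 37 of 41 with the pseudocount of 0.1 and 36 as reported. Shares of the catalytic positions are ratios within a library and do not change with scaling. No paired analysis was possible because there was 1 library per time point and the labels give no replicate numbers. The scalings lower the values by construction, and the cause of the other moves was not tested. With 1 library per time point no difference has a replicate check, and counting error is the only error estimated.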

Other observations

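Ranked within each library among the genes that reached 5 FPKM in some library, a measure that scaling does not move, single members changed place by different amounts. The deubiquitinase gene Psmd14 stood above 65.8% of these genes in the quiescent library, 90.6% at day 1, 84.9% at day 3 and 72.7% at day 10. The chaperone gene Psmg1 stood above 45.2% in the quiescent library, 82.4% at day 1, 74.5% at day 3 and 57.8% at day 10. Psmb9 ranked highest at day 3 and lowest at day 10, above 55.5% in the quiescent library, 43.7% at day 1, 77.7% at day 3 and 42.8% at day 10. Psmf1 stood above 34.3% of them in quiescent cells and 35.0% at day 1, with 27.8% at day 3.

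The balance of regulators to the core also differed between libraries. The level of Psmf1, which binds the core, divided by the mean of the 7 alpha genes was 0.127 in the quiescent library and 0.0425, 0.0398, 0.0530, 0.0885, 0.0642, 0.0954 and 0.101 at days 1, 2, 3, 4, 5, 7 and 10. The mean of Psme1 and Psme2 divided by the same alpha mean was 1.33 in the quiescent library and 0.728, 0.744, 1.08, 1.07, 1.15, 1.16 and 1.09 over the injured days in order. Both ratios were below their quiescent values in all 7 injured libraries, and both were lowest at day 1 or 2. These values describe 1 library each.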
